A study of Homo sapiens with 9 samples.

Results

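The circadian clock genes were the 9 genes PER1, PER2, PER3, CRY1, CRY2, CLOCK, BMAL1 (also named ARNTL), DBP and TEF, taken by name from 27654 named genes. Each was represented by the transcript entry with the highest total over the 9 libraries. All 9 were among the 14669 genes that passed the filter on low counts. RNA was sequenced from Caco-2, an established line from a human colon tumour that can form an epithelial layer like that of the intestine, grown with lipid-depleted serum. All groups, the control included, received 10 µM lovastatin, a statin that inhibits HMG-CoA reductase, for 48 h. The groups of 3 libraries each were lovastatin alone, lovastatin with 10 µM SGA360 and lovastatin with 10 µM SGA315, the latter pair being ligands of the aryl hydrocarbon receptor (AHR). Cells without lovastatin were not analysed here. Separate cultures are not named in the labels, so the p-values rest on variation from library to library, which may be technical.

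The mammalian clock is a transcriptional feedback loop. CLOCK and BMAL1 form a heterodimer that binds E-box sequences and activates the PER and CRY genes, whose protein products return to the nucleus and inhibit CLOCK and BMAL1. In an interlocked loop, ROR receptors activate and REV-ERB receptors (NR1D1 and NR1D2) repress BMAL1. DBP, TEF and HLF are PAR bZIP factors that activate genes through D-box sequences, where NFIL3 represses. The intestinal epithelium has such a clock, and CLOCK, BMAL1 and the PER proteins carry PAS domains of the kind found in AHR. The libraries were harvested at 1 time, 48 h, so a shift in the phase of a rhythm and a change in its mean level cannot be told apart. In such bulk RNA, fewer cells that express a gene and less of its RNA per cell cannot be told apart either.

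Counting 1 entry for each gene, the libraries held 12342736 to 16881982 counts, and each library correlated best with another of its own group. Of 7 epithelial markers, 6 passed the filter and KRT20 held 18 counts over all libraries. Of 8 markers of other cell types, ACTA2, COL1A2, CD3E and PTPRC held 1, 1, 7 and 37 counts over all libraries, while VIM, ENO2, COL1A1 and PECAM1 passed the filter. The summed level of the 7 epithelial markers was 7052 to 7136 CPM (counts relative to a library total scaled by TMM, which makes libraries comparable) under lovastatin alone, 5150 to 5570 under SGA360 and 3711 to 3799 under SGA315. That of the 8 other markers was 235.9 to 248.7, 283.1 to 303.8 and 344.9 to 356.5 CPM, and VIM supplied most of it. KRT8 and KRT18 supplied most of the epithelial sum, and EPCAM, CDH1 and VIL1 also fell with both ligands. CDX2, an epithelial marker too, went the other way, with means of 75.9, 80.1 and 117 CPM in the same order of groups. Against the sum of the other markers, COL1A1 had means of 44.0, 30.2 and 21.3 CPM, and PECAM1 1.58, 0.961 and 1.34. MKI67, a proliferation marker, stood at 380 ± 6.6 CPM with lovastatin alone, 179 ± 12.99 with SGA360 and 181 ± 4.77 with SGA315 (mean ± SD, n = 3 each). Whether these shifts take part in the clock gene results was not tested.

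Per kilobase of transcript, the CRY genes, which encode the cryptochrome repressors, had the highest levels of the 9 clock genes. With lovastatin alone the level of CRY1 was 14.6 ± 1.24 CPM per kilobase and that of CRY2 8.73 ± 0.451 (mean ± SD, n = 3). CLOCK followed at 5.56 ± 0.464, PER3 at 5.56 ± 0.133, BMAL1 at 4.74 ± 0.402, TEF at 4.51 ± 0.146, PER1 at 4.19 ± 0.125, DBP at 3.29 ± 0.197 and PER2 at 2.55 ± 0.122 CPM per kilobase. The libraries of CLOCK and PER3 overlapped on this scale, as did those of CLOCK and BMAL1 and those of BMAL1 and TEF, so the order of these neighbours did not exceed their spread. With each ligand CRY1 and CRY2 remained first and second and PER2 last. DBP stood eighth of 9 with lovastatin alone, at 3.10 to 3.49, and at 5.62 to 6.32 CPM per kilobase with SGA360 and 5.49 to 7.01 with SGA315. Transcript lengths were those of GENCODE 29, and for BMAL1 the length came from a transcript with 99.91% of the counts of its chosen entry.

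**Figure D1:**
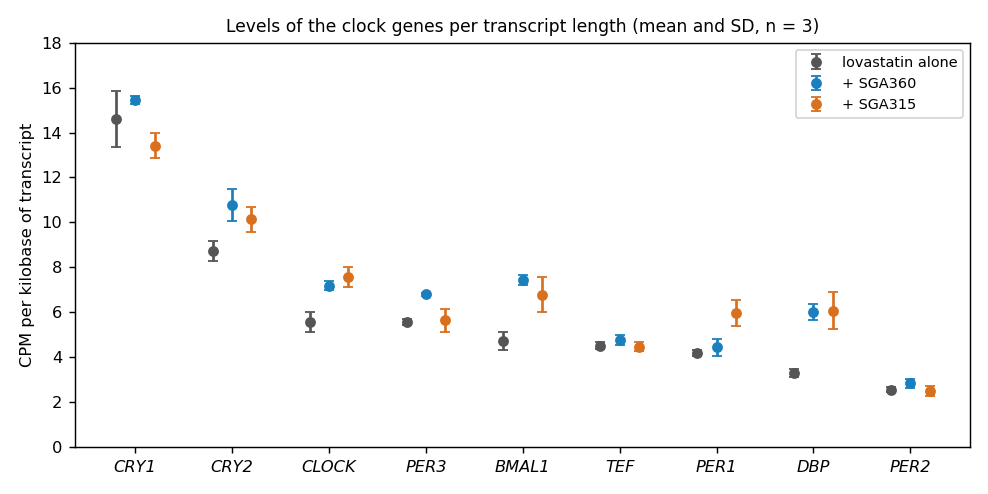
Levels of the 9 clock genes in CPM per kilobase of transcript (vertical axis, linear), ordered by their level with lovastatin alone; points are means and bars SD over 3 libraries, by group. CRY1 lies highest, at 13.4 to 15.5 in the 3 groups, and PER2 lowest, at 2.499 to 2.83.

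Promoter windows (250 bases before to 50 after each annotated start, RefSeq, GRCh38.p14) were found for all 9 genes, 14 windows in all. The windows were searched on both strands for the E-box CACGTG, bound by CLOCK and BMAL1, the D-box forms TTACGTAA and TTATGTAA, the ROR and REV-ERB core forms TAGGTCA and TGGGTCA, the cAMP response element TGACGTCA and the AHR core GCGTG. The E-box was present in PER1 and in both windows of TEF, against 7.26% of 35116 windows of the same length. A D-box form was present in PER2 and PER3 (1.01% of all windows), and a ROR and REV-ERB core in BMAL1, CLOCK and CRY2 (5.69%). The AHR core was present in 5 of the 9 genes, PER1, PER3, CRY1, CLOCK and DBP. Counted by window it was in 6 of the 14, against 36.5% of all windows. No cAMP response element was found in the 14 windows (1.85% of all windows). The 2 windows of PER3 overlap by 162 bases and both of its AHR cores lie in the overlap, so the 17 matches are 15 distinct stretches of the genome, none of which shared a base with another. A match describes letters in the window and shows no binding.

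The stretches below show the E-box in capitals over the 250 bases before the start, for 3 clock genes that differ in whether they hold it and for CIART, a target gene and inhibitor of CLOCK and BMAL1 that had the largest rise among the clock genes outside the 9. They lie at chr17:8152405-8152654 (minus strand) for PER1, chr22:41381692-41381941 (plus strand) for TEF, chr19:48637380-48637629 (minus strand) for DBP and chr1:150282304-150282553 (plus strand) for CIART. PER1 and TEF hold 1 E-box, CIART holds 3, and DBP holds no such hexamer in this window. CIART was picked with its rise known. Of 26 listed clock genes outside the 9, 21 had windows, and 6 of these hold the E-box: BHLHE40, BHLHE41, CIART, CIPC, NR1D2 and TIMELESS. The last of them fell with both ligands. Counted by window the E-box was in 6 of 27, against 7.26% of all windows. Whether an E-box goes with a rise was not tested.
PER1: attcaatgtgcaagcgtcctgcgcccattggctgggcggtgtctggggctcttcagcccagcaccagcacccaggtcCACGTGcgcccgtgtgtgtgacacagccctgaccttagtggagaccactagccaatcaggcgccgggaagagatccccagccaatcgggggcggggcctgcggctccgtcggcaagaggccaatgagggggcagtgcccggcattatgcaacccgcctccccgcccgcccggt
TEF: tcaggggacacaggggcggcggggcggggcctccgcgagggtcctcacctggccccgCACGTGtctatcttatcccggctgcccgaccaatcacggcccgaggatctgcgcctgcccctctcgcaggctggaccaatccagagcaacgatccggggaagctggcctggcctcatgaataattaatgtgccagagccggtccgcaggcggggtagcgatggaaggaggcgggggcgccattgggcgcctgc
DBP: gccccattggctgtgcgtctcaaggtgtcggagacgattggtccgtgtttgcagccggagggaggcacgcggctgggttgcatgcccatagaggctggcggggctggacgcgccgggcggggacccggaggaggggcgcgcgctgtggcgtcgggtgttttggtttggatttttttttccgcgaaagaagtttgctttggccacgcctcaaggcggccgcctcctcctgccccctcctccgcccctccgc
CIART: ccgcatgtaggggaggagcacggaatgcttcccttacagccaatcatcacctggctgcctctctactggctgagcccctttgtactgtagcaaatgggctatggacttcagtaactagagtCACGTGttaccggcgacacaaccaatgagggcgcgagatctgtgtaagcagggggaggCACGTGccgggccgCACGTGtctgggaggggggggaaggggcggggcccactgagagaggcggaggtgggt

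For PER2 and BMAL1 the match lay across or after the start, and 30 bases around it are shown. The stretch of PER2, with its D-box in capitals, lies at chr2:238288595-238288624 (minus strand), and that of BMAL1, with its ROR and REV-ERB core in capitals, at chr11:13277808-13277837 (plus strand).
PER2: cccgctgcggcTTACGTAAccgccgccggc
BMAL1: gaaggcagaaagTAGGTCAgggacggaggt

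How the clock genes responded to SGA360 in statin-treated cells was read from the SGA360 and lovastatin libraries. 5 of the 9 rose, namely DBP, BMAL1, CLOCK, CRY2 and PER3, by 1.22-fold to 1.81-fold. PER1, PER2, CRY1 and TEF were not called, at log2 fold changes of 0.07 to 0.16. A gene is called at a Benjamini-Hochberg adjusted p under 0.05 over all genes tested, in edgeR's quasi-likelihood test. At that threshold 62.8% of all genes were called, 31.4% of them higher and 31.4% lower as shares of the genes tested, so the 5 of 9 called is a share near the background. The median log2 fold change of the 9 was 0.29, and that of all genes tested 0.02. For 6 of the 9 the groups did not overlap, against 66.3% of all genes. With scaling to library totals only, the median of all genes moved from 0.02 to 0.14 and all 9 clock genes were called higher; over all genes 67.4% of the calls were then higher, against 50% with TMM.

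The comparison of SGA315 with lovastatin alone put the same question for the other ligand. DBP, BMAL1, PER1, CLOCK and CRY2 rose, by 1.16-fold to 1.84-fold, and CRY1 fell slightly. PER2, PER3 and TEF were not called, at −0.02, 0.02 and −0.02 on the log2 scale. Of all genes 69.2% were called, 36.0% higher and 33.2% lower, and 6 of 9 is again near that background. The median log2 fold change was 0.22, and that of all genes 0.04. Groups did not overlap for 5 of the 9, against 70.4% of all genes. Under totals-only scaling (no TMM) the median of all genes moved from 0.04 to 0.16 and 6 clock genes were higher and 0 lower in place of 5 and 1 with TMM (over all genes, 65.7% of calls were higher in place of 52%). Both comparisons share the lovastatin libraries.

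The direct comparison of the 2 ligands at the same dose and time called 3 of the 9 clock genes. PER1 was lower with SGA360 than with SGA315, and PER3 and CRY1 were higher. Of all genes 42.7% were called, 21.8% higher and 20.9% lower. Groups did not overlap for these 3 of the 9, against 49.2% of all genes. The median log2 difference, SGA360 minus SGA315, was 0.10, and −0.01 for all genes. This was the 1 pair of compounds compared.

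**Figure D2:**
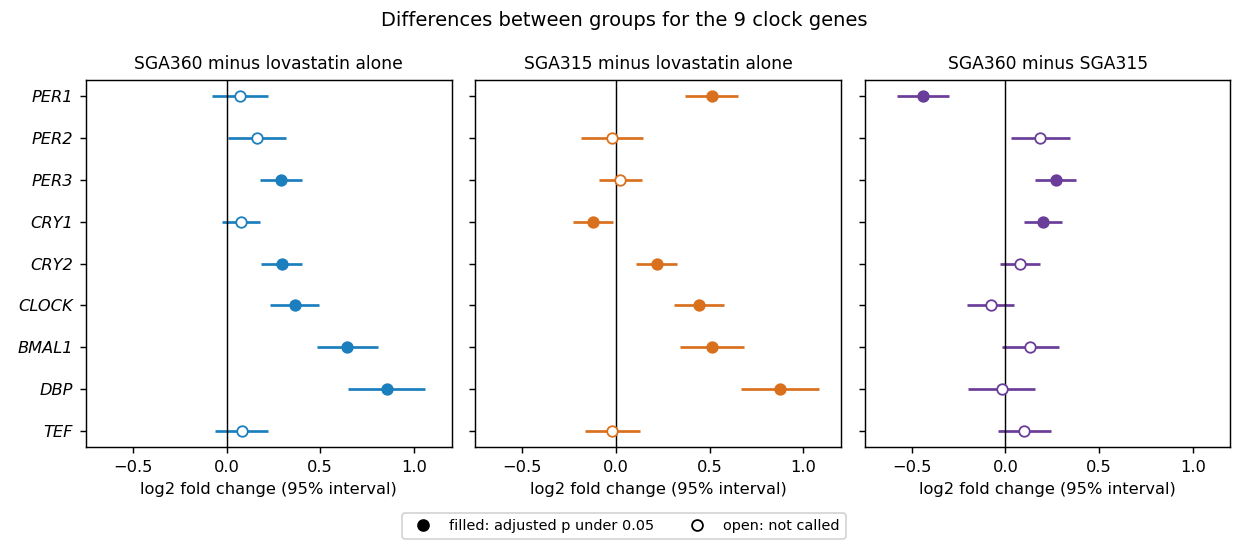
Log2 fold changes of the 9 clock genes (horizontal axis; lines are 95% intervals from the fit over 9 libraries) for SGA360 minus lovastatin alone, SGA315 minus lovastatin alone and SGA360 minus SGA315; filled points have an adjusted p under 0.05. DBP lies farthest to the right against lovastatin in both ligand panels, at 0.86 and 0.88, and PER1 farthest to the left in the panel of ligands, at −0.44.

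Both activators of the core loop rose with each ligand. BMAL1, the partner that pairs with CLOCK, had 12.3, 12.8 and 14.5 CPM in the 3 libraries with lovastatin alone, 20.4, 20.4 and 21.5 with SGA360, and 19.5, 16.5 and 20.7 with SGA315. Every ligand library lay above every library without ligand, and the lowest of them was the second with SGA315. The log2 fold change of BMAL1 was 0.65 ± 0.082 with SGA360 (SE; adjusted p = 2.75e-10) and 0.51 ± 0.085 with SGA315 (adjusted p = 2.39e-07, edgeR). Between the ligands the difference was 0.13, with a 95% interval of −0.02 to 0.28 (adjusted p = 0.159). CLOCK, its partner in the heterodimer and a histone acetyltransferase, had 24.6, 22.1 and 20.9 CPM with lovastatin alone, 29.4, 28.2 and 29.7 with SGA360, and 31.0, 28.8 and 32.4 with SGA315. Here too the ligand libraries lay above the others without overlap. CLOCK rose by 0.36 ± 0.066 with SGA360 (adjusted p = 2.01e-06) and by 0.44 ± 0.066 with SGA315 (adjusted p = 1.9e-08), and the ligands differed by −0.08 (95% interval −0.20 to 0.04, adjusted p = 0.313). In GENCODE 29, CLOCK shares 76 exon bases, 0.646% of those of all its transcripts together, with TMEM165 on the opposite strand. TMEM165 fell in both comparisons, by 0.20 and 0.37 on the log2 scale.

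The 3 PER genes, which encode the period repressors, did not move together. PER1, which also responds quickly to cAMP and glucocorticoid signals, had 19.6, 19.2 and 20.4 CPM with lovastatin alone and 21.6, 18.8 and 22.1 with SGA360. With SGA315 it had 29.3, 29.9 and 24.9 CPM, above all other libraries. PER1 rose by 0.51 ± 0.071 with SGA315 (SE; edgeR adjusted p = 3.99e-09) and had a log2 fold change of 0.07 ± 0.075 with SGA360 (adjusted p = 0.415). The difference itself, SGA360 minus SGA315, was −0.44 ± 0.07 (adjusted p = 3.35e-07), and PER1 was 1.36-fold higher with SGA315. Under totals-only scaling, PER1 was also called with SGA360, at 0.19 (adjusted p = 0.0272; 0.0272 to 0.842 over 13 alternatives).

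PER3, the period gene least needed for rhythms in mice, showed the other order. It had 35.2, 35.4 and 33.8 CPM with lovastatin alone and 43.0, 42.2 and 42.2 with SGA360, without overlap, and 33.0 to 38.9 with SGA315, across the range of lovastatin alone. PER3 rose by 0.29 ± 0.055 with SGA360 (edgeR adjusted p = 5.13e-06), while the value for SGA315 was 0.02 ± 0.058 (adjusted p = 0.739), which was called higher under totals-only scaling (0.14, adjusted p = 0.0238; 0.0238 to 1 over 13 alternatives). Its level with SGA360 exceeded that with SGA315 by 0.27 ± 0.055 (adjusted p = 4.61e-05). PER2, a repressor needed for normal rhythms in mice, had 15.4 to 16.7 CPM under lovastatin alone, 16.8 to 19.5 under SGA360 and 14.5 to 17.2 under SGA315. For PER2 the log2 fold change with SGA360 was 0.16 ± 0.079 (adjusted p = 0.0655), although the libraries did not overlap, and with SGA315 it was −0.02 ± 0.082 (adjusted p = 0.821). The ligands differed by 0.19 in PER2 (95% interval 0.03 to 0.34, adjusted p = 0.0529). PER2 was called higher with SGA360 under totals-only scaling (0.28, adjusted p = 0.0017) and without SGA360 replicate 3 (0.20, adjusted p = 0.0332; 0.0017 to 0.394 over 13 alternatives). Against SGA315 it was called with RLE scaling (adjusted p = 0.0408), with a replicate block (adjusted p = 0.049), without SGA360 replicate 3 (adjusted p = 0.0271) and without SGA315 replicate 2 (adjusted p = 0.0256).

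The cryptochromes, the stronger repressors of CLOCK and BMAL1, also differed from each other. CRY2 had 38.9, 35.7 and 35.6 CPM with lovastatin alone, 42.9, 44.3 and 48.6 with SGA360, and 44.6, 43.1 and 40.0 with SGA315. Both ligand groups lay above lovastatin alone. CRY2 rose by 0.29 ± 0.054 with SGA360 (SE; edgeR adjusted p = 3.44e-06) and by 0.22 ± 0.056 with SGA315 (adjusted p = 0.000528), and the ligands differed by 0.08 (95% interval −0.03 to 0.18, adjusted p = 0.239). CRY1 had 45.8, 44.9 and 52.3 CPM with lovastatin alone, 50.1, 50.1 and 51.2 with SGA360, and 45.2, 44.5 and 41.8 with SGA315. The third lovastatin library was the highest of all 9, and both ligand groups overlapped lovastatin alone. CRY1 was higher with SGA360 than with SGA315 by 0.20 ± 0.051 (adjusted p = 0.000984), without overlap. Against lovastatin, CRY1 fell by 0.12 ± 0.052 with SGA315 (adjusted p = 0.0335) and stood at 0.08 ± 0.050 with SGA360 (adjusted p = 0.174). The fall ended without lovastatin replicate 3 (−0.06, adjusted p = 0.346), without SGA315 replicate 3 (−0.09, adjusted p = 0.133) and under totals-only scaling (0.00, adjusted p = 0.984). DESeq2 did not call it either (−0.15, adjusted p = 0.0571), and the adjusted p had a range of 0.0103 to 0.984. With SGA360, CRY1 was called higher without lovastatin replicate 3 (0.14, adjusted p = 0.0256) and under totals-only scaling (0.19, adjusted p = 0.000756; 0.000756 to 0.663 over 13 alternatives).

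DBP, an output gene of the loop and itself a transcription factor, had the largest rise of the 9 with both ligands. It had 7.34, 6.90 and 7.78 CPM with lovastatin alone, 13.6, 12.5 and 14.1 with SGA360, and 12.2, 15.6 and 12.7 with SGA315. The 6 ligand libraries all lay above the 3 without ligand, and the spread was widest with SGA315. DBP rose 1.81-fold with SGA360, 0.86 ± 0.103 on the log2 scale (SE; edgeR adjusted p = 5.67e-11), and 1.84-fold with SGA315, 0.88 ± 0.104 (adjusted p = 2.88e-11). The difference between the ligands was −0.02, with a 95% interval of −0.20 to 0.16 (adjusted p = 0.875). DBP shares 661 exon bases with the more abundant SPHK2 on the opposite strand. They are 10.1% of the 6544 exon bases of all its GENCODE 29 transcripts together. The transcript counted here has 2229 bases, and its shared part was not measured. The strand setting of the counting is not given in the sources used here, so the value of DBP is uncertain to that extent. SPHK2 had 58.0 CPM under lovastatin alone, 59.9 under SGA360 and 62.8 under SGA315, log2 fold changes of 0.05 and 0.12. TEF, a PAR bZIP relative of DBP, had 19.1 to 20.3 CPM under lovastatin alone, 19.7 to 21.7 under SGA360 and 18.7 to 20.5 under SGA315. Its 3 ranges overlapped, and its log2 fold changes were 0.08 (95% interval −0.06 to 0.22) and −0.02 (−0.16 to 0.13). TEF was called higher with SGA360 under totals-only scaling (0.20, adjusted p = 0.0124; 0.0124 to 0.704 over 13 alternatives).

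**Figure D3:**
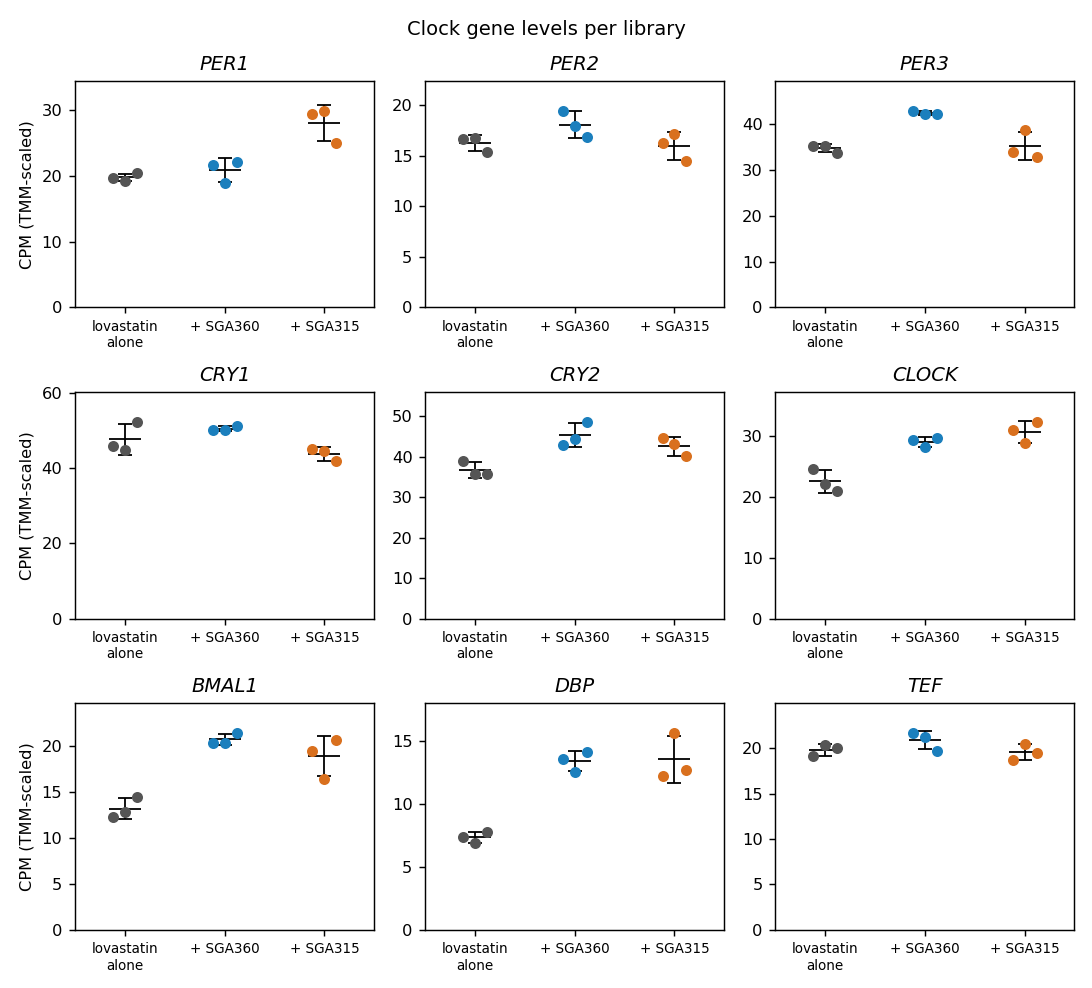
CPM of each clock gene in each of the 9 libraries (points; vertical axis linear from 0), with mean and SD per group of 3. The points with either ligand lie above those with lovastatin alone for CRY2, CLOCK, BMAL1 and DBP, those with SGA315 stand apart for PER1, and those with SGA360 for PER3.

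In a test against a change of 1.5-fold (edgeR's glmTreat), DBP alone of the 9 passed, with SGA360 (adjusted p = 0.0244) and with SGA315 (adjusted p = 0.00905). Of all genes 5.70% passed with SGA360 and 10.8% with SGA315. Between the ligands 0 of the 9 passed (0 at an unadjusted p under 0.05), against 1.25% of all genes. The changes of the other 8 clock genes were not shown to exceed 1.5-fold, including that of BMAL1, whose estimate with SGA360 was 1.56-fold.

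Across the 9 libraries, 29 of the 36 pairs of clock genes had a positive Pearson correlation of log2 CPM, with a median of 0.39. The highest were CLOCK with DBP, at 0.86, and BMAL1 with DBP, at 0.855, and the lowest PER1 with CRY1, at −0.485. These values describe libraries that fall into 3 groups and carry no test. DBP, the clock gene with the largest change in both ligand comparisons, was most like POGLUT2 (r = 0.994), LINC03027 (r = 0.990) and MTMR6 (r = 0.986) out of 11512 genes whose mean reached 5 CPM. POGLUT2 rose by 0.32 with SGA360 and by 0.32 with SGA315, LINC03027 by 0.93 and 1.05, and MTMR6 by 0.47 and 0.45. A correlation above 0.95 with DBP was reached by 293 genes.

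A list of 26 other clock genes placed these changes in the wider loop, and 24 of them passed the filter. With SGA360 12 rose and 3 fell, at a median of 0.17, and with SGA315 11 rose and 7 fell, at a median of 0.08. Under totals-only scaling these were 16 and 2, and 12 and 3. Between the ligands 9 were higher and 2 lower with SGA360 than with SGA315, at a median of 0.08. Over all genes 62.8%, 69.2% and 42.7% were called in these comparisons, at medians of 0.02, 0.04 and −0.01, so the shares of the list called were near the background. RORB held 0 counts in all 9 libraries. The upper limit for 0 counts (3 counts, counting error only) was 0.178 to 0.243 CPM by library, here relative to totals without TMM.

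The repressors of E-box genes included the largest rises of the list. CIART had 1.82, 2.18 and 1.36 CPM with lovastatin alone, 5.24, 4.29 and 4.64 with SGA360, and 4.67, 4.14 and 4.46 with SGA315. It rose 2.67-fold with SGA360 (log2 1.42 ± 0.181 SE; edgeR adjusted p = 3.84e-10) and 2.499-fold with SGA315 (1.32 ± 0.187, adjusted p = 5.16e-09), and the ligands differed by 0.09 (95% interval −0.20 to 0.39). BHLHE40, also called DEC1, rose by 0.62 with SGA360 (edgeR adjusted p = 8.08e-11) and by 0.21 with SGA315 (adjusted p = 0.0217). Its range with SGA315, 16.26 to 18.68 CPM, overlapped that with lovastatin alone, 13.96 to 16.73. For BHLHE40 the difference between the ligands was 0.42 ± 0.074 (adjusted p = 3.41e-06). Its relative BHLHE41 rose by 1.01 and 1.147, from 51 counts over the 3 libraries with lovastatin alone. BHLHE41 shares 162 exon bases with SSPN on the opposite strand, which rose by 1.10 and 1.03, and its value is uncertain. CIPC, an inhibitor of CLOCK, rose by 0.24 with SGA315 (adjusted p = 0.000899) and had a value of 0.09 with SGA360 (adjusted p = 0.206), which was called under totals-only scaling (0.21, adjusted p = 0.00419); the difference between the ligands was −0.14 (adjusted p = 0.0563), which that scaling also called (−0.15, adjusted p = 0.0478).

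Of the D-box factors, NFIL3, the repressor, had 16.3 to 17.97 CPM under lovastatin alone, 34.7 to 38.5 under SGA360 and 33.4 to 40.9 under SGA315. NFIL3 rose 2.09-fold with SGA360 (edgeR adjusted p = 1.55e-21) and 2.10-fold with SGA315 (adjusted p = 1.32e-21), a difference of −0.01 on the log2 scale (95% interval −0.13 to 0.11). HLF, the third PAR bZIP activator, had 12.8 to 15.3 CPM under lovastatin alone, 27.8 to 29.3 under SGA360 and 14.9 to 18.9 under SGA315. The SGA315 range overlapped that of lovastatin alone, and no other pair of ranges did. HLF rose with both ligands, 2.10-fold with SGA360 (adjusted p = 3.34e-20) and 1.24-fold with SGA315 (adjusted p = 0.00124), and its level with SGA360 was 1.70-fold that with SGA315 (adjusted p = 4.41e-14). The 3 PAR bZIP genes thus differed in the comparison of ligands: the value of HLF was 0.77 ± 0.073, against −0.02 for DBP and 0.10 for TEF. These differences between genes were not tested.

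In the REV-ERB and ROR loop, NR1D2, which encodes REV-ERB beta, had 38.9 to 43.7 CPM under lovastatin alone, 58.4 to 61.7 under SGA360 and 63.0 to 67.7 under SGA315. NR1D2 rose by 0.55 ± 0.049 with SGA360 (adjusted p = 8.06e-16) and by 0.66 ± 0.049 with SGA315 (edgeR adjusted p = 1.74e-19), and was lower with SGA360 than with SGA315 by 0.11 (adjusted p = 0.0375). NR1D1, which encodes REV-ERB alpha, had log2 fold changes of −0.09 (95% interval −0.27 to 0.10) and 0.04 (−0.15 to 0.22), the first of which was 0.03 under totals-only scaling. NR1D1 shares 263 exon bases, 9.49% of those of all its transcripts together, with the more abundant THRA on the opposite strand. RORA, an activator of BMAL1, had 11.1 to 13.2 CPM under lovastatin alone, 17.1 to 17.3 under SGA360 and 11.2 to 11.97 under SGA315. It rose by 0.51 ± 0.083 with SGA360 (adjusted p = 1.96e-07), stood at −0.05 with SGA315 (adjusted p = 0.63; 0.07 under totals-only scaling), and differed between the ligands by 0.57 ± 0.084 (adjusted p = 7.01e-08).

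Of the paralogs of the activators, BMAL2 was not called higher with either ligand, unlike BMAL1, and NPAS2 was called with SGA360 only. Differences between paralogs were not tested. BMAL2, which can replace BMAL1 as a partner of CLOCK, had 29.4 to 33.5 CPM with SGA315 against 40.7 to 43.6 with lovastatin alone and 40.3 to 43.1 with SGA360. It fell by 0.41 ± 0.056 with SGA315 (edgeR adjusted p = 2.92e-09) and had a value of −0.02 with SGA360 (adjusted p = 0.747; 0.09 under totals-only scaling). BMAL2 was higher with SGA360 than with SGA315 by 0.39 ± 0.056 (adjusted p = 3.37e-08). NPAS2, the paralog of CLOCK, rose by 0.47 ± 0.183 with SGA360 (adjusted p = 0.0231) and stood at 0.17 ± 0.196 with SGA315 (adjusted p = 0.457), at means of 2.31 to 3.19 CPM.

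Of the 6 kinases that phosphorylate PER or CRY, 2 rose and 1 fell with SGA360, and 2 rose and 3 fell with SGA315, where 62.8% and 69.2% of all genes were called. Nothing particular to the kinases is read from these counts. Under totals-only scaling 4 rose and 0 fell, and 3 rose and 0 fell, so the falls depended on the scaling. CSNK1A1, a casein kinase, rose by 0.13 and 0.18, and PRKAA2, a catalytic subunit of AMP-activated kinase, by 0.31 and 0.24. CSNK1D, which encodes casein kinase 1 delta, had values of −0.02 and 0.04 (adjusted p = 0.637 and 0.264, edgeR); under totals-only scaling both were called higher, at 0.10 and 0.16. CSNK1E had values of 0.00 and −0.18, the latter called (adjusted p = 0.000541) but not under totals-only scaling (−0.06, adjusted p = 0.238), which called the former higher (0.11, adjusted p = 0.0275). Its value is uncertain, since a readthrough gene, TPTEP2-CSNK1E, held 6951 counts in the table against 6882 for CSNK1E. GSK3B, glycogen synthase kinase 3 beta, fell by 0.16 with SGA315 (adjusted p = 0.000114) and stood at −0.07 with SGA360 (adjusted p = 0.0615); under totals-only scaling the values were −0.04 and 0.04, neither called. PRKAA1, the other catalytic subunit of AMP-activated kinase, fell by 0.09 with each ligand (adjusted p = 0.0303 and 0.0231), which turned to 0.03 with each, not called, under totals-only scaling. Among the ubiquitin ligase genes, BTRC, whose product marks PER proteins for degradation, rose by 0.21 with SGA360 and 0.45 with SGA315, and differed between the ligands by −0.24 (adjusted p = 4.27e-05). FBXW11, its paralog, rose by 0.24 and 0.12.

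TIMELESS, which acts in DNA replication, and WEE1, a kinase that restrains the entry to mitosis and has been described as a clock target, fell with both ligands. TIMELESS went from 99.7 ± 2.36 CPM to 72.5 ± 2.11 with SGA360 and 65.1 ± 0.832 with SGA315 (mean ± SD, n = 3), and WEE1 from 108 ± 1.96 to 85.5 ± 2.22 and 87.5 ± 3.75. NOCT, a rhythmic phosphatase gene, fell by 0.34 with SGA315 (adjusted p = 0.00651, edgeR; adjusted p = 0.08 under totals-only scaling) and had a value of −0.02 with SGA360, or 0.09 with that scaling. USP2, a rhythmic ubiquitin protease gene, had values of 0.21 (adjusted p = 0.0732) and −0.14 (adjusted p = 0.245) and differed between the ligands by 0.35 ± 0.106 (adjusted p = 0.00509). Under totals-only scaling USP2 was called higher with SGA360, at 0.32 (adjusted p = 0.00519).

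**Figure D4:**
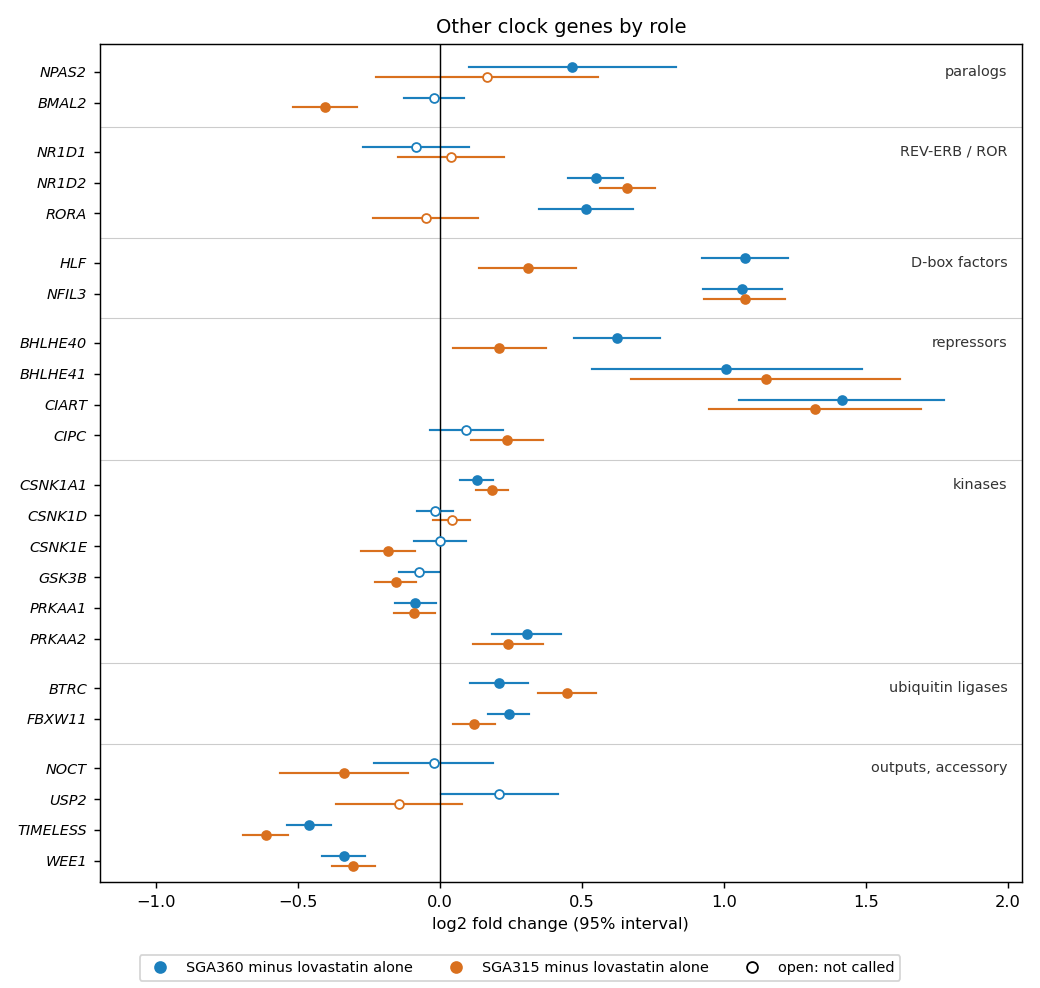
Log2 fold changes against lovastatin alone (horizontal axis; lines are 95% intervals) of tested clock genes outside the 9 that the text names, grouped by role, with SGA360 in blue and SGA315 in orange; open points were not called. CIART lies farthest to the right, at 1.42 and 1.32, and TIMELESS farthest to the left, at −0.46 and −0.61. The pairs of points lie farthest apart for HLF, RORA, BHLHE40 and BMAL2, and other pairs are apart by less.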

How the data were processed

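The authors deposited counts, unnormalized and whole, with 1 row for each RefSeq transcript and 1 column for each library, per the file headers. Per the submitters' processing notes, TopHat2 2.0.13, HTSeq 0.5.4p3 and hg19 were used, with no role stated. The annotation release and strand setting are not given in those notes. Of 65325 entries, 64346 were named from RefSeq (GRCh38.p14) and 567 from GENCODE 29. The other 412 held 0.22% of counts and were left out. Transcripts of a gene repeat shared reads, so 1 entry stood for each gene. Of genes with identical counts and at least 20 counts in all, 1 was kept (62 dropped).

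The test was edgeR's (edgeR 4.0.16, R 4.3.3; quasi-likelihood F test, TMM, filterByExpr with minimum count 10 and minimum total 15), 9 libraries in 1 fit, 1 coefficient per group, Benjamini-Hochberg adjustment over 14669 genes. The SE is the log2 fold change divided by the root of F. The fit was tested on simulated data. Alternatives were RLE scaling, totals only, DESeq2 1.42.0, no filter, the compared groups only, a replicate block, a 1.5-fold test, the lowest accession, and each library left out. Named were all 9 members, the tested genes of the other clock lists, a few check genes, genes that overlap them, and the 3 genes most correlated with the clock gene of largest change. MKI67 was chosen with its values known. Some listed genes are not reported here by name, although the counts and medians of the lists include them. The members and lists were chosen with earlier results of these data known.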

Additional observations from a re-analysis of the deposited data

How the results depend on the processing

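Of the 9 clock genes, DBP, BMAL1, CLOCK and CRY2 were called higher with both ligands in all 13 alternatives that test against no change, as were PER1 with SGA315 and PER3 with SGA360. PER1, PER3 and CRY1 were likewise called between the ligands in all 13. With scaling to totals only, 9 clock genes were called with SGA360, all 9 higher, and 0 were lower with SGA315; DESeq2 also called 0 lower there. PER2 and TEF then turned positive with SGA315, at 0.10 each, and PER3 turned to −0.0047 with DESeq2; none of these 3 was called in the fit reported. In the 1.5-fold test 1 clock gene was called with SGA360 (1 higher) and 1 with SGA315 (1 higher, 0 lower), with 0 for the difference of ligands (0 at an unadjusted p under 0.05). For the other clock genes it called 3, 3 and 0 (4, 4 and 1 unadjusted), and for all genes 836, 1579 and 183. These are fewer because the test asks for a larger change. Leaving out each library in turn gave 5 to 6, 5 to 6 and 3 to 4 clock genes called with SGA360, with SGA315 and between them, and 0 to 1 lower with SGA315. Over the same 6 omissions the log2 fold change with SGA315 was −0.054 to 0.064 for PER3, −0.061 to 0.00014 for TEF and −0.078 to 0.038 for PER2, and the difference of ligands was −0.094 to 0.098 for DBP. BMAL1 was called between the ligands without SGA315 replicate 3 (0.20, adjusted p = 0.0472; 0.0472 to 0.713 over the alternatives).

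No pairing of libraries by replicate number was seen. Deviations of same-numbered libraries correlated by −0.025 to 0.046, and those of libraries with different numbers by −0.057 to 0.034. Such a check can miss a weak pairing. With a replicate block 5, 6 and 4 clock genes were called in place of 5, 6 and 3, the addition being PER2 between the ligands. Other changed calls of the 9 clock genes stand beside the gene. For single genes outside the 9, only the calls under totals-only scaling were compared. Depth limits the low genes: CIART, BHLHE41 and NPAS2 rested on 51 to 220 counts per group.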

Other observations

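AHR, the receptor of both ligands and a PAS protein like CLOCK and BMAL1, was at 79.0 ± 2.45 CPM with lovastatin alone, 69.8 ± 2.52 with SGA360 and 50.5 ± 1.81 with SGA315 (mean ± SD, n = 3). ARNT, the PAS partner of AHR and the relative after which BMAL1 was first named, went the other way, with 35.4 to 38.4 CPM under lovastatin alone, 45.5 to 49.7 under SGA360 and 50.2 to 55.9 under SGA315. ARNT rose by 0.40 ± 0.053 with SGA360 (SE; edgeR adjusted p = 6.36e-10) and by 0.53 ± 0.052 with SGA315 (adjusted p = 3.92e-14), close in size to the rises of CLOCK, 0.36 and 0.44. CYP1A1, a target of AHR, was at 44.6 CPM under lovastatin alone, 5.45 under SGA360 and 1053 under SGA315, so the ligands took it in opposite directions. Among the clock genes, DBP, BMAL1, CLOCK, CRY2, NFIL3 and CIART rose with both ligands. Others were called with 1 ligand only in that fit. With SGA315 these were PER1 and CIPC, higher, and CRY1, BMAL2, CSNK1E, GSK3B and NOCT, lower. With SGA360 they were PER3, RORA and NPAS2, all higher. Whether AHR takes part in any of these changes was not tested.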
